A study of Mus musculus with 6 samples.

Results

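*Khk*, *Txnip*, *Arrdc4*, *Klf10*, *Rgs16*, *Tm6sf2*, *Adipor2* and *Gpd1* are 8 genes that carbohydrate feeding is known to induce in liver, or that are counted as targets of the carbohydrate response element binding protein (ChREBP, encoded by *Mlxipl*), outside glycolysis and lipogenesis. They were taken by gene symbol from count tables of 23282 genes, and all 8 were among the 14076 that passed the filter on low counts. The tables come from livers of 12-week-old C57BL/6 mice (C57BL/6N in the study's methods) that went without food for 24 h and then ate normal chow for 24 h. The 3 wild-type mice carried floxed *Tcf7l2* alleles and no Cre (*Tcf7l2* f/f), and the 3 knockout mice carried the same alleles with Cre under the albumin promoter (*Alb-Cre;Tcf7l2* f/f). That promoter is active in hepatocytes, and liver cells in which it was never active keep the gene. The question was whether the 8 genes differed between genotypes, and whether they moved together across the 6 livers.

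ChREBP acts with its partner MLX at carbohydrate response elements, which are pairs of E-box-like half-sites set a fixed distance apart. In liver it raises enzymes of glucose, fructose and fat metabolism after a meal rich in carbohydrate. *Khk* encodes ketohexokinase, which phosphorylates fructose as the first step of its breakdown. *Txnip* and *Arrdc4* encode related alpha-arrestins that limit glucose uptake, and their transcription follows sugar phosphates closely. *Klf10* encodes a Krüppel-like repressor, *Rgs16* a protein that shortens G-protein signalling, *Tm6sf2* a membrane protein that helps to load lipid onto VLDL, *Adipor2* an adiponectin receptor and *Gpd1* the cytosolic glycerol 3-phosphate dehydrogenase.

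The stretches just before the transcription start are shown for 3 of the genes, because they hold the kinds of element that ChREBP and its cofactors are known to use. RefSeq's promoter table for GRCm38.p6 held 5 of the 8 genes (*Adipor2*, *Arrdc4*, *Khk*, *Rgs16* and *Txnip*). Starts are those of that table, which for *Khk* and *Adipor2* lie inside the full extent of the gene given here and not at its outer end. Each line gives the 250 bases before the start, with capitals for the E-box CACGTG, for CCAAT on either strand (ATTGG on the reverse), and for 2 half-sites CACGNG separated by 5 bases.

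Txnip: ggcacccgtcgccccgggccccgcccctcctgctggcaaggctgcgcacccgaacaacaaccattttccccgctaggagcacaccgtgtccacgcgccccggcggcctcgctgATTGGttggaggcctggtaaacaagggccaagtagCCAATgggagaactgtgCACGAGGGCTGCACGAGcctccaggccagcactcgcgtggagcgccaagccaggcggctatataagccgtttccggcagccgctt
Arrdc4: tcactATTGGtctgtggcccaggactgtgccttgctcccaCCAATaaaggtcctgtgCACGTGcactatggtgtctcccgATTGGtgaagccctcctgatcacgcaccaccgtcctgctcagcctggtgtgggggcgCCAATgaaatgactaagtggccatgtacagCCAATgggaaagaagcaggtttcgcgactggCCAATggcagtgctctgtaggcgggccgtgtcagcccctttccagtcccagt
Khk: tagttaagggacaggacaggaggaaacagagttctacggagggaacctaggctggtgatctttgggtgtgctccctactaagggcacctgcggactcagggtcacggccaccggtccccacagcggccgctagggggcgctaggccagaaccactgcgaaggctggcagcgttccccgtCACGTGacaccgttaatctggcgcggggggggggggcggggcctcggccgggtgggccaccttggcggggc

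The *Txnip* stretch lies on the plus strand at chr3:96557707-96557956, the *Arrdc4* stretch on the minus strand at chr7:68749239-68749488, and the *Khk* stretch on the plus strand at chr5:30921309-30921558. The paired half-sites of *Txnip*, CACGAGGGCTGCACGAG, begin 85 bases before the start, at chr3:96557872-96557888. This pattern was looked for after the sequences had been read, on both strands, and 0.0487% of all 32851 promoter windows of 300 bases held it. *Khk* has its E-box 71 bases before its inner start and *Arrdc4* has its E-box 193 bases before the start of *Arrdc4*. Of all windows 7.15% held CACGTG. *Arrdc4* holds CCAAT 6 times, *Txnip* 2 times and *Rgs16* once, against at least once in 37.4% of all windows. The full consensus of the carbohydrate response element was found in 0 of the 5 windows and in 0.119% of all windows. The TCF/LEF motif ATCAAAG, on either strand, was found in 0 of the 5 and in 3.73% of all windows. These are matches of letters only, within these windows.

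The libraries held 60619938 to 133384586 counts. The 20 numbered *Mup* genes (major urinary proteins) took 31.7 to 54.3% of the counts in wild-type and 18.5 to 28.7% in knockout libraries, so values are given in CPM on library sizes adjusted by TMM factors. *Tcf7l2* itself ranged from 4.88 to 6.85 CPM over the wild-type livers and from 2.74 to 3.33 CPM over those of the knockout, for which edgeR gave a log2 fold change of −0.93 with an SE of 0.19 (adjusted *p*=0.0856). These *Tcf7l2* values count the whole gene and not only the exon that the study floxed. All 12 hepatocyte markers were measured, at a summed 73240 to 105200 CPM. No library was a copy of another, as every pair of libraries gave a chi-square of at least 190 per degree of freedom. Each library was taken as 1 mouse, and *p* values measure the spread between these libraries. The lowest count of any of the 8 genes in a library was 326, for which counting error alone gives an SD of 5.54%.

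None of the 8 genes passed edgeR's test across all genes, and the genes did not share a direction. In edgeR's fit 4 lay above 0 and 4 below, and their median was 0.105 on the log2 scale, beside −0.0168 and 47.9% above 0 for all 14076 genes. After adjustment edgeR called 0 of these 8 genes and 0.448% of all genes, and DESeq2 called 0 of these and 3.08% of all. An unadjusted *p* under 0.05 was reached by *Arrdc4* and *Gpd1*, in opposite directions, which is 2 of 8 where 13.5% of all genes reached it. In the same 2 genes the genotypes did not overlap, which held for 19.3% of all genes. Both counts are small, and neither sets the 8 genes apart from the background.

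**Figure D1:**
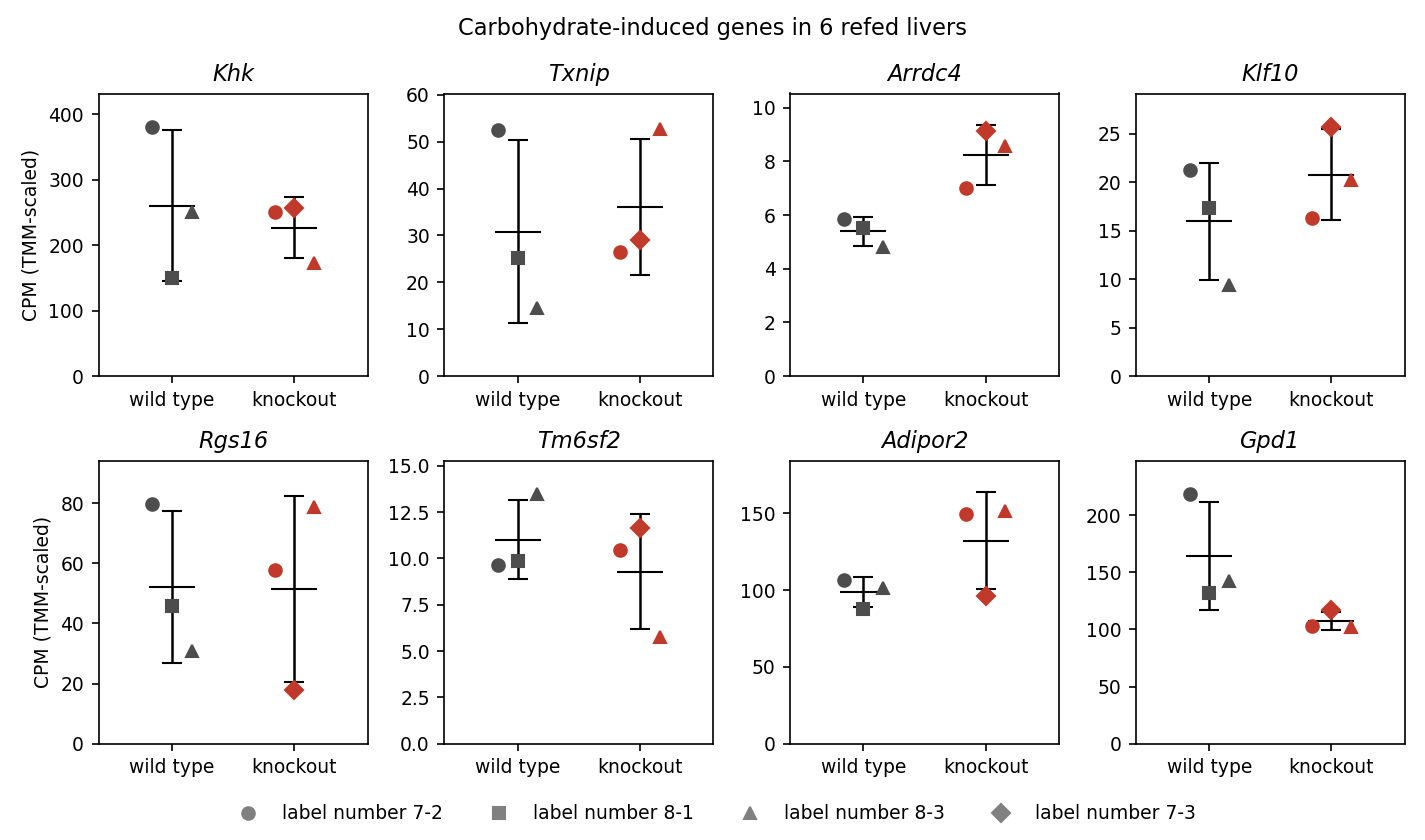
CPM on TMM-adjusted library sizes (vertical axis, from 0) of each of the 8 genes in the 3 wild-type (grey) and 3 knockout (red) livers, with the marker shape giving the number in the library's label and the black lines the mean and SD. *Arrdc4* and *Gpd1* are the genes whose groups do not overlap, at 4.79 to 5.87 against 7.00 to 9.13 CPM and at 131 to 219 against 102 to 117 CPM.

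*Arrdc4* (NM_001042592, chr7:68736994-68749238) stood at 5.87, 5.51 and 4.79 CPM in wild-type livers 7-2, 8-1 and 8-3. In knockout livers 7-2, 7-3 and 8-3 it stood at 7.00, 9.13 and 8.58 CPM. The highest wild-type liver was below the lowest knockout liver, so the genotypes did not overlap. Means were 5.39 ± 0.548 CPM without Cre and 8.24 ± 1.1 CPM with it (SD, *n*=3), a 1.53-fold difference. EdgeR put the log2 fold change at 0.61 with an SE of 0.17 and a 95% interval from 0.24 to 0.99. Its adjusted *p* was 0.167 in edgeR and 0.0685 in DESeq2, and the exact permutation test (two-sided) stopped at 0.1, below which 3 against 3 cannot go.

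*Gpd1*, whose enzyme turns dihydroxyacetone phosphate into glycerol 3-phosphate (NM_010271, chr15:99717587-99725014), went the other way. It stood at 219, 131 and 143 CPM in wild-type livers 7-2, 8-1 and 8-3, and at 103, 117 and 102 CPM in knockout livers 7-2, 7-3 and 8-3. The knockout livers lay close together below all the wild-type livers, and wild-type 7-2 was far above the others. The means were 164 ± 47.5 and 107 ± 8.23 CPM. In edgeR this came to −0.61 on the log2 scale, with an SE of 0.21 and a 95% interval from −1.09 to −0.14. The adjusted *p* was 0.254 in edgeR and 0.0935 in DESeq2, and the exact permutation test gave 0.1. Without wild-type library 7-2 the difference was −0.35 on the log2 scale. The 2 genes can also be compared inside a library, where no scaling enters. There were 26.8, 41.9 and 33.6 counts of *Arrdc4* per 1000 counts of *Gpd1* in the wild-type livers, and 67.8, 78.2 and 84.3 in the knockout livers. This ratio was chosen after the values had been seen and was not tested. As the groups of the 2 genes lay apart in opposite directions, their ratio had to separate the genotypes.

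*Khk* (NM_008439, chr5:30921436-30931248) was the most abundant of the 8 per length of transcript. It stood at 380.3, 149.7 and 251 CPM in wild-type livers 7-2, 8-1 and 8-3, and at 250.3, 257 and 173 CPM in knockout livers 7-2, 7-3 and 8-3. The lowest and the highest value were both wild type, so the knockout range lay inside the wild-type range. The means were 260.2 ± 115.6 and 227 ± 46.5 CPM (edgeR: −0.20 on the log2 scale, SE 0.31, interval at 95% from −0.89 to 0.49, adjusted *p*=0.815). Without wild-type library 7-2 the log2 fold change was 0.18.

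Of 11 genes that take up or break down fructose, *Khk* included, all 11 were tested and 0 were called, with 5 above 0 and a median log2 fold change of −0.0131. *Tkfc*, which encodes the kinase that phosphorylates glyceraldehyde from fructose, had the second smallest *p* of the list. It ranged from 348 to 607 CPM over the wild-type and from 254 to 401 CPM over the knockout livers (−0.42 on the log2 scale, adjusted *p*=0.493). The sugar transporter gene *Slc2a8*, with the smallest *p*, had −0.38 (adjusted *p*=0.489). The transporter gene *Slc2a2* had 0.35 (adjusted *p*=0.501), and the aldose reductase gene *Akr1b3*, under 1 CPM in every library, had −0.58 (adjusted *p*=0.53).

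*Txnip* (NM_023719, chr3:96557957-96561857) varied more between mice of 1 genotype than between genotypes. It stood at 52.5, 25.3 and 14.6 CPM in wild-type livers 7-2, 8-1 and 8-3, and at 26.5, 29.0 and 52.7 CPM in knockout livers 7-2, 7-3 and 8-3. Its 2 highest values were almost equal and came from different genotypes. The means were 30.8 ± 19.6 and 36.0 ± 14.5 CPM (edgeR: 0.23 on the log2 scale, SE 0.42, interval at 95% from −0.71 to 1.16, adjusted *p*=0.849). Leaving out 1 library gave 0.86 (wild-type 7-2), −0.11 (wild-type 8-3) or −0.15 (knockout 8-3) on the log2 scale.

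*Txnip* overlaps the lncRNA gene *Gm15441*, and the counting is not stated to use strand, so reads of the 2 cannot be told apart. *Gm15441* stood at 10.5, 4.85 and 2.63 CPM in the wild-type and at 5.37, 5.73 and 10.5 CPM in the knockout livers. *Txnip* was 4.93 to 5.55 times as high in every library. Of 10 tested genes of the alpha-arrestin and thioredoxin system, 0 were called, 6 lay above 0 and the median log2 fold change was 0.141. Beside *Arrdc4*, the smallest *p* was that of *Arrdc3*, another alpha-arrestin, at 26.4 to 49.97 CPM in the wild-type and 39.1 to 113 CPM in the knockout livers (0.99 on the log2 scale, adjusted *p*=0.279). *Klf10* and *Gpd1* also overlap an lncRNA gene each in RefSeq, *Gm35248* and *Gm16537*.

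*Rgs16* (NM_011267, chr1:153740353-153745468) showed the widest spread of the 8, at 4.44-fold from the lowest to the highest library. It stood at 79.8, 45.7 and 30.7 CPM in wild-type livers 7-2, 8-1 and 8-3, and at 57.7, 18.0 and 78.6 CPM in knockout livers 7-2, 7-3 and 8-3. Knockout livers were both the lowest and nearly the highest. The means were 52.1 ± 25.2 and 51.4 ± 30.8 CPM (edgeR: −0.02 on the log2 scale, SE 0.48, interval at 95% from −1.09 to 1.05, adjusted *p*=0.99). An interval of this width holds differences of over 2-fold in either direction. Of 9 tested RGS genes, *Rgs16* included, 0 were called and 5 lay above 0. *Rgs3* (log2 fold change 0.79, adjusted *p*=0.254) and *Rgs5* (0.85, adjusted *p*=0.309) had the smallest *p* and stood under 4 CPM in every library.

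*Klf10* (NM_001289471, chr15:38291464-38300711) stood at 21.2, 17.3 and 9.39 CPM in wild-type livers 7-2, 8-1 and 8-3, and at 16.3, 25.7 and 20.2 CPM in knockout livers 7-2, 7-3 and 8-3. Wild-type 8-3 was the lowest, and the other 5 livers overlapped between genotypes. EdgeR put the log2 fold change at 0.38 (SE 0.28, interval at 95% from −0.24 to 1.00, adjusted *p*=0.579), and 0.10 without that library. Of 13 tested genes of the KLF family 0 were called, with 7 above 0 and a median of 0.0514. *Klf4*, under 0.4 CPM in every library, had the smallest *p* (log2 fold change 1.26, adjusted *p*=0.297), and *Klf13* the next (0.38, adjusted *p*=0.373).

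*Adipor2* (NM_197985, chr6:119353150-119417699) stood at 107, 88.0 and 101 CPM in wild-type livers 7-2, 8-1 and 8-3, and at 149, 95.8 and 151 CPM in knockout livers 7-2, 7-3 and 8-3. Knockout livers 7-2 and 8-3 lay above all wild-type livers, and knockout 7-3 lay among them. EdgeR put the log2 fold change at 0.42 (SE 0.20, interval at 95% from −0.03 to 0.87, adjusted *p*=0.401). Its sister receptor gene *Adipor1* ranged from 49.7 to 56.3 CPM and from 49.0 to 52.0 CPM (−0.08 on the log2 scale, adjusted *p*=0.842). Of 9 tested adiponectin receptor and PAQR family genes and their partners, 0 were called and 4 lay above 0. *Appl2*, an adaptor of the receptors, had 0.32 (adjusted *p*=0.411).

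*Tm6sf2* (NM_001293795, chr8:70072924-70080066) stood at 9.68, 9.89 and 13.5 CPM in wild-type livers 7-2, 8-1 and 8-3, and at 10.5, 11.6 and 5.76 CPM in knockout livers 7-2, 7-3 and 8-3. Only knockout 8-3 fell outside the wild-type range. EdgeR put the log2 fold change at −0.25 (SE 0.25, interval at 95% from −0.82 to 0.32, adjusted *p*=0.694), and 0.0046 without that library. Of 9 genes of VLDL lipidation 0 were called and 6 lay above 0, among them *Mttp*, the microsomal triglyceride transfer protein, at 0.31 (adjusted *p*=0.498) and *Sar1b*, which acts in export from the endoplasmic reticulum, at 0.29 (adjusted *p*=0.482).

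**Figure D2:**
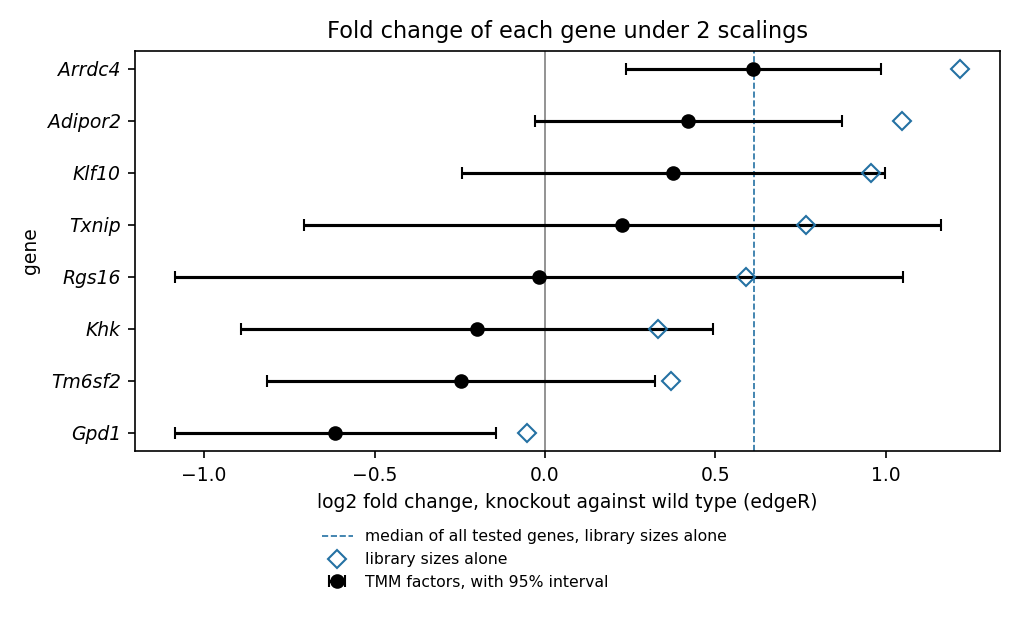
Log2 fold change of knockout against wild type from edgeR (horizontal axis) for each gene (vertical axis), with TMM factors (black, bars for the 95% interval) and with library sizes alone (open blue diamonds). Intervals of *Arrdc4* (0.24 to 0.99) and *Gpd1* (−1.09 to −0.14) do not hold 0, and with library sizes alone all values shift right along with the median of all tested genes at 0.613 (dashed line).

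The scaling decides how many of these genes are called. Without TMM factors, on library sizes alone, the median over all genes moved to 0.613 on the log2 scale, and *Arrdc4* (1.22), *Adipor2* (1.05) and *Klf10* (0.96) were called higher, 3 of 8 where 20.8% of all genes were called higher. Against that shifted median, *Arrdc4*, *Adipor2*, *Klf10* and *Txnip* still lay above and *Rgs16*, *Khk*, *Tm6sf2* and *Gpd1* below, as with TMM factors against 0.

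The genes of the glycerol 3-phosphate and malate-aspartate shuttles, *Gpd1* included, had no common direction. Of 11 tested genes 0 were called, 6 lay above 0 and the median was 0.0022. *Gpd1* was the gene of this list whose knockout values all lay below the wild-type values, while 3 others had all of theirs above. Groups that did not overlap made up 19.3% of all genes. Glycerol kinase, *Gyk*, which makes glycerol 3-phosphate from glycerol, ranged from 22.7 to 26.9 CPM in the wild-type and from 31.2 to 37.1 CPM in the knockout livers (0.50 on the log2 scale, adjusted *p*=0.189 from edgeR). *Slc25a13*, the aspartate-glutamate carrier of liver mitochondria, ranged from 51.2 to 64.5 CPM and from 77.8 to 88.0 CPM (0.51 on the log2 scale, adjusted *p*=0.203). The third was *Gpd1l*, a relative of *Gpd1*, at 4.72 to 7.07 CPM and 7.40 to 8.54 CPM (0.38 on the log2 scale, adjusted *p*=0.399). The mitochondrial partner *Gpd2* ranged from 16.4 to 16.6 CPM and from 16.4 to 17.8 CPM (0.05 on the log2 scale, adjusted *p*=0.895).

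Per kilobase of canonical transcript, the level in wild-type liver was 157 CPM for *Khk*, 57.4 for *Gpd1*, 23.6 for *Adipor2*, 22.1 for *Rgs16*, 10.9 for *Txnip*, 7.62 for *Tm6sf2*, 5.23 for *Klf10* and 1.38 for *Arrdc4*. Over the 3 wild-type livers *Khk*, *Gpd1* and *Adipor2* did not overlap with their neighbours in this order, except *Adipor2* with *Rgs16*. From *Adipor2* down to *Klf10* every neighbouring pair overlapped, and *Arrdc4* lay below all. In knockout liver *Gpd1* (35.6 to 40.8) overlapped with *Adipor2* (22.9 to 36.1). In bulk liver, fewer cells of a type and less RNA per cell cannot be told apart.

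The 8 genes did not move as 1 block across the 6 livers. Pearson's r of log2 CPM was computed for all 28 pairs, and 17 were positive (60.7%), with a median of 0.0664. For all pairs of the 14076 tested genes the median was −0.0007 and 49.9% were positive. Of the 28 pairs, 0 reached an unadjusted *p* under 0.05 in a two-sided exact permutation test over 720 orders, for r or for Spearman's rho, and the smallest adjusted *p* for r was 0.739. As deviations from the mean of each genotype, the median r was 0.141 with 18 of 28 positive.

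**Figure D3:**
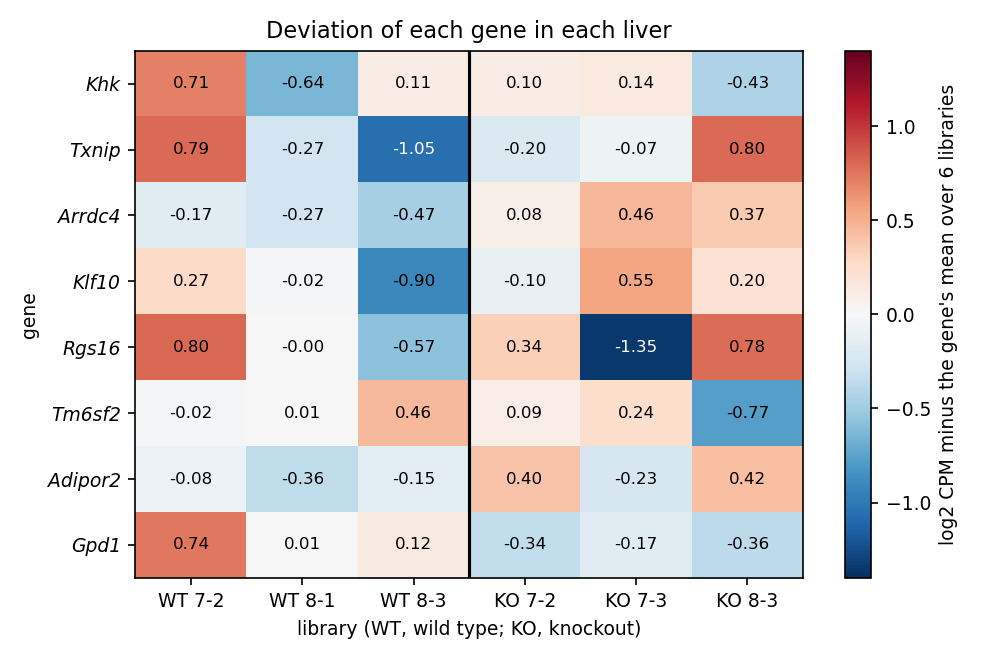
Log2 CPM of each gene (rows) in each liver (columns, WT for wild type and KO for knockout) minus that gene's mean over the 6 libraries, as colour and number. WT 7-2 is raised by 0.71 to 0.80 in *Khk*, *Txnip*, *Rgs16* and *Gpd1*, and KO 8-3 by 0.80 and 0.78 in *Txnip* and *Rgs16* while *Tm6sf2* and *Khk* are reduced there by −0.77 and −0.43.

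Some livers held the highest or the lowest value of several genes. Wild-type 7-2 had the highest value of 3 genes, *Khk*, *Rgs16* and *Gpd1*, and the second highest of *Txnip* and *Klf10*. Wild-type 8-3 had the lowest value of 3 genes, *Txnip*, *Arrdc4* and *Klf10*, and the highest of *Tm6sf2*. Knockout 8-3 had the highest *Txnip* and *Adipor2* and the lowest *Tm6sf2* and *Gpd1*. No liver was above its genes' means in all 8, and the number above ran from 2 in wild-type 8-1 to 5 in wild-type 7-2, knockout 7-2 and knockout 8-3.

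**Figure D4:**
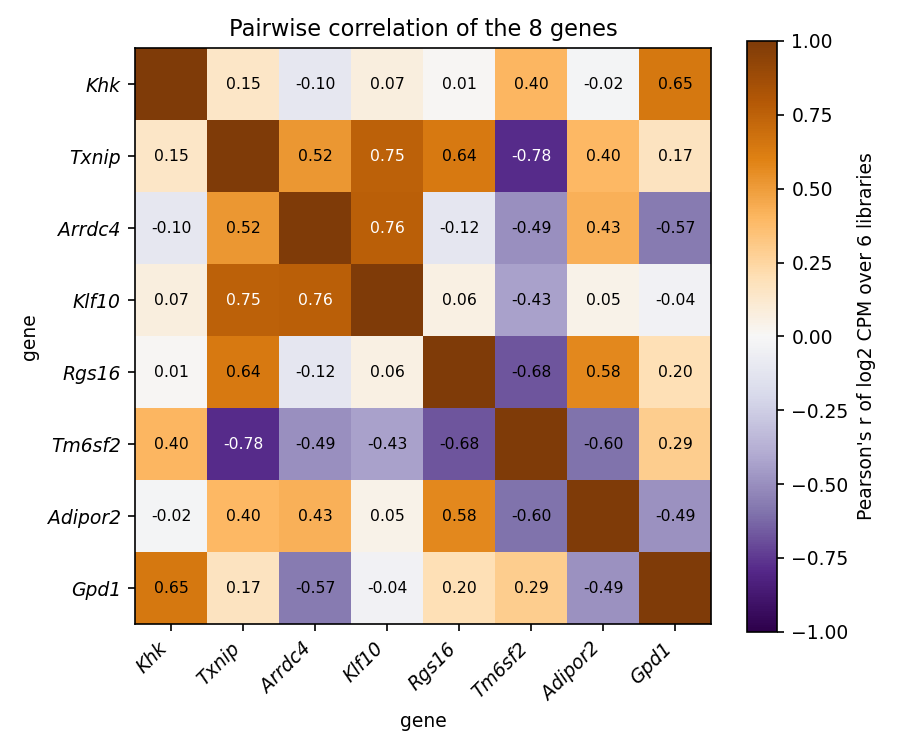
Pearson's r of log2 CPM over the 6 libraries for each pair of the 8 genes (both axes), from −1 (purple) to 1 (orange). The largest values are 0.76 for *Arrdc4* with *Klf10*, 0.75 for *Txnip* with *Klf10* and −0.78 for *Txnip* with *Tm6sf2*, and *Tm6sf2* is negative with 5 of the other 7 genes.

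The highest values of r were those of *Klf10* with *Arrdc4* and with *Txnip*. *Arrdc4* with *Klf10* had r=0.763 (*p*=0.0528 from the exact permutation test, adjusted *p*=0.739, rho=0.714), and r=0.627 without the 2 libraries farthest from the median of *Arrdc4*. *Txnip* with *Klf10* had r=0.75 (exact permutation *p*=0.0792, adjusted *p*=0.739, rho=0.714), and 0.939 without the 2 libraries farthest from the median of *Txnip*. The arrestin genes *Txnip* and *Arrdc4* had r=0.519 (exact permutation *p*=0.299, adjusted *p*=0.745, rho=0.714) and 0.805 without those 2. The relation of *Txnip* to *Rgs16*, r=0.639 (exact permutation *p*=0.171, adjusted *p*=0.745, rho=0.6), fell to 0.00152 without them, wild-type 7-2 and knockout 8-3. As deviations from the genotype means it was 0.696. Leaving out the extremes of *Txnip* narrows its range, so the fall does not show what the relation rested on. *Rgs16* with *Adipor2* had r=0.577 (exact permutation *p*=0.233, adjusted *p*=0.745, rho=0.657), 0.486 without the 2 libraries farthest from the median of *Rgs16*, and 0.847 as deviations from the genotype means.

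*Khk* followed *Gpd1* (r=0.646, exact permutation *p*=0.168, adjusted *p*=0.745, rho=0.543, and 0.52 without the 2 libraries farthest from the median of *Khk*), and 0.862 as deviations from the genotype means. *Tm6sf2* ran against *Txnip* (r=−0.782, exact permutation *p*=0.0597, adjusted *p*=0.739, rho=−0.771) and stayed at −0.763 without the 2 libraries farthest from the median of *Txnip*. None of these relations passed the adjustment over the 28 pairs. The numbers 7 and 8 that begin the library labels are not explained in the sources used here, and the directions of 4 genes differed between them. Between libraries that begin with 7 the difference in log2 CPM (knockout minus wild type) was −0.92 for *Txnip*, −1.31 for *Rgs16*, −0.05 for *Klf10* and 0.19 for *Tm6sf2*. Between those that begin with 8 it was 1.45, 1.07, 0.66 and −1.0 for the same genes. *Arrdc4* (0.44 and 0.74), *Adipor2* (0.17 and 0.68), *Khk* (−0.58 and −0.16) and *Gpd1* (−0.99 and −0.43) kept their sign. Each of these comparisons rests on 3 libraries, with 1 wild-type library beginning with 7 and 1 knockout library beginning with 8.

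The mRNA of the transcription factor behind the element was not called different between genotypes (0.18 on the log2 scale, SE 0.30, adjusted *p*=0.826 in edgeR). *Mlxipl* stood at 74.6, 168 and 78.8 CPM in wild-type livers 7-2, 8-1 and 8-3, and at 104, 139.5 and 120.1 CPM in knockout livers 7-2, 7-3 and 8-3. Its highest value was in wild-type 8-1, the liver with the lowest *Khk* and *Adipor2*. Of 16 tested genes of ChREBP, its partners and its modifiers, 0 were called, 11 lay above 0 and the median was 0.161. *Mxi1* (log2 fold change 0.57, adjusted *p*=0.158) and *Mxd4* (0.61, adjusted *p*=0.167), members of the same wider family of E-box binding proteins, had the smallest *p*. The genotypes did not overlap in either, at 10.4 to 13.9 against 17.6 to 18.5 CPM for *Mxi1* and 12.5 to 17.4 against 20.8 to 26.5 CPM for *Mxd4*. With *Max* (7.79 to 8.73 against 9.19 to 10.01 CPM), this held for 3 of the 16, all higher in knockout. Over all genes 19.3% had groups that did not overlap, in either direction, so the 3 do not set this list apart.

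Across the livers the 8 genes had little in common with 25 other ChREBP targets, mainly of glycolysis and lipogenesis. The list also held *G6pc*, *Fgf21*, *Mttp* and the pentose phosphate genes *Tkt*, *Taldo1* and *Pgd*. Those 25 had a median r of 0.36 among themselves, with 70.0% of 300 pairs positive, and a median of 0.05 with the 8 genes, with 52.5% of 200 pairs positive. Their median log2 fold change was 0.352, with 19 above 0 and 0 called by edgeR (5 higher and 0 lower by DESeq2). Taken singly, the median r with the 25 was 0.414 for *Arrdc4*, 0.294 for *Adipor2*, 0.219 for *Klf10* and 0.194 for *Tm6sf2*. It was −0.0044 for *Khk*, −0.107 for *Txnip*, −0.148 for *Rgs16* and −0.41 for *Gpd1*. These correlations share 6 libraries and are given as a description. The difference between the 2 sets was not tested.

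Of all other genes with a mean log2 CPM above 1, *Safb* had the highest median r with the 8 genes over the 6 libraries, at 0.66. It was followed by *Fam120b* (0.62), *Decr2* (0.615), *Col6a2* (0.613) and *Ero1lb* (0.605). Each of the 5 ran with *Txnip* (r from 0.811 to 0.927) and against *Tm6sf2* (r from −0.87 to −0.703) and was negative with *Gpd1*. With so few libraries and so many genes these values are given as a description.

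Several of the 8 genes are also transcribed outside hepatocytes, and the summed markers of stellate and endothelial cells did not overlap between genotypes. Stellate cell markers summed to 75.2 to 94.5 CPM in wild-type and 114 to 118 CPM in knockout livers, with 9 of 13 above 0. Markers of sinusoidal endothelium summed to 119 to 125 and 140.2 to 151 CPM, with 13 of 13 above 0. Kupffer cell and macrophage markers summed to 104 to 135 and 103 to 108 CPM, with 2 of 13 above 0, and cholangiocyte markers to 34.9 to 58.0 and 33.2 to 39.1 CPM, with 1 of 6 tested above 0. Lymphocyte, neutrophil, red cell and pancreatic acinar markers overlapped between genotypes in their sums. Of 7 adipose markers, *Adipoq*, *Lep*, *Plin1* and *Retn*, which define adipocytes, had 0 to 4 counts in any library, and *Cfd* had 0 to 10. The other 2 were tested, with 1 above 0. *Car3* ranged from 451 to 1228 CPM in wild-type and from 1060 to 1076 CPM in knockout livers. *Fabp4* ranged from 4.60 to 4.98 CPM and from 2.94 to 4.45 CPM. Of all these markers 0 were called by edgeR, while DESeq2 called 3 of the stellate cell markers higher, *Dcn*, *Reln* and *Colec11*, where it called 3.08% of all genes. Of the 12 hepatocyte markers edgeR called 0, and DESeq2 called *Cyp3a11* higher and *Fgb* lower. The stellate cell markers did not share a direction. *Acta2* was lower, at 3.85 to 5.78 CPM in wild-type and 2.59 to 3.20 CPM in knockout livers (−0.75 on the log2 scale in edgeR, adjusted *p*=0.0514 in DESeq2). Their part in the values of the 8 genes was not tested.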

How the data were processed

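Livers of 3 wild-type and 3 knockout mice were sequenced as mRNA with a directional kit, and genotypes were taken from the labels. The files the authors deposited hold raw counts of each gene, 1 file a library, obtained with Bedtools from reads aligned once or several times, without the quantile normalisation that their methods describe. TopHat and mm10 stand in the submitters' processing notes, while the aligner's version and whether counting used strand are not given in these sources. Each file lists 23282 genes, with 35 symbols on more than 1 row, none of them a member. The genes were chosen, and the lists written, with earlier results of these data known.

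Genotypes were compared with the quasi-likelihood test of edgeR 4.0.16 (in R 4.3.3, beside limma 3.58.1) on 14076 genes kept by filterByExpr (min.count 10, min.total.count 15), with TMM factors and Benjamini-Hochberg adjustment over all of them, called under 0.05. The test was checked on simulated counts. There edgeR recovered 50 of 100 genes with a true log2 fold change of 1 and 97 of 100 with 2, and 17 of its 164 calls were false. DESeq2 recovered 71 and 99, and 28 of its 198 calls were false. Changes under 1 on the log2 scale, where the 8 genes lay, were not simulated, so such changes can go uncalled. Log2 CPM used a prior count of 2. Correlations used exact permutations over libraries. Named beyond the 8 genes were, from each list, the called genes and up to 2 others with the smallest *p*, and the 5 genes most alike in pattern; further names were chosen after their values were seen, and some genes that the rule names are not reported here. As alternatives, limma-voom, DESeq2 1.42.0, limma on quantile-normalised log2 counts, library sizes alone, upper-quartile or RLE factors, and scaling without *Mup* genes were run, as were no filter, each library left out, and replicate blocks. Promoter sequences and gene positions are RefSeq's for GRCm38.p6, the build of mm10, and transcript lengths are those of GENCODE's canonical transcripts.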

Additional observations from a re-analysis of the deposited data

How the results depend on the processing

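Of the 8 genes, 0 were called higher or lower under each alternative run, except with library sizes alone, where 3 were called higher. Adjusted *p* values outside that setting were 0.0685 or more for *Arrdc4* and 0.0935 or more for *Gpd1*, and both kept their sign throughout (0.53 to 1.22 and −0.78 to −0.05). Library sizes alone shift all genes upward, and there *Khk* (0.33), *Rgs16* (0.59) and *Tm6sf2* (0.37) lay above 0 but still below the median of all genes at 0.613. Directions turned for *Khk* (0.18 without wild-type 7-2), *Rgs16* (0.44 with the replicate block on the whole label number, 0.43 without wild-type 7-2 and 0.39 without knockout 7-3), *Tm6sf2* (0.0046 without knockout 8-3) and *Txnip* (−0.11 without wild-type 8-3 and −0.15 without knockout 8-3). The median r of the 28 pairs was 0.0664, and 0.0532 to 0.141 under other scales, except 0.596 with library sizes alone, where the median of all gene pairs was 0.665. It ran from −0.0426 (without wild-type 7-2) to 0.184 (without knockout 7-3) when libraries were left out. Over all genes edgeR called 10 higher and 53 lower. It called 2932 and 88 with library sizes alone, DESeq2 194 and 239, and limma-voom 6 higher. No filter gave 23 higher. Leaving out libraries gave 3 to 18 higher and 21 to 69 lower. The replicate block on the leading number gave 6 and 33, and that on the whole number 34 lower. Label numbers 7-2 and 8-3 occur in both genotypes. The deviations of these pairs correlated at 0.00795 and −0.00686, while pairs of unlike numbers ran from −0.108 to 0.114. What a shared number marks cannot be told from these values. Apart from the turn of *Rgs16*, neither block changed a direction or call among the 8 genes. With each library left out in turn, the log2 fold change ran from −0.47 to 0.18 for *Khk*, −0.15 to 0.86 for *Txnip*, −0.46 to 0.43 for *Rgs16* and −0.44 to 0.0046 for *Tm6sf2*. Causes were not tested. Counting error at the lowest count, that of *Arrdc4* in wild-type 8-3, has an SD of 5.54%. The SD between wild-type livers was 10.2% of the mean for that gene.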

Other observations

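Genes of the circadian clock, which is known to time *Klf10*, *Rgs16* and *Khk* in liver, include several whose genotypes did not overlap. Of 19 tested clock genes, 7 had all knockout values above and 4 all knockout values below the wild-type values, beside 19.3% of all genes in either direction. *Per2* ranged from 5.39 to 10.8 CPM over the wild-type and from 15.5 to 26.2 CPM over the knockout livers (1.30 on the log2 scale, adjusted *p*=0.0895 in edgeR). *Cry1* had 1.06 (adjusted *p*=0.0975) and *Nr1d1* −0.66 (adjusted *p*=0.224). After adjustment edgeR called 0 of the 19 and DESeq2 3, all higher. Before adjustment 6 higher and 1 lower had a *p* under 0.05 in edgeR. Over all genes the shares were 0.448% for edgeR, 3.08% for DESeq2 and 13.5% before adjustment. The hour at which livers were taken is not given in the sources used here, and its part in these values was not tested.

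Of 18 genes that fasting induces or insulin represses, 0 were called by edgeR and 8 lay above 0. Before adjustment 1 higher and 5 lower had a *p* under 0.05, beside 13.5% of all genes in either direction. *Asns*, asparagine synthetase, ranged from 4.41 to 10.6 CPM over the wild-type and from 0.894 to 3.52 CPM over the knockout livers (−1.81 on the log2 scale, adjusted *p*=0.14 in edgeR), and *Trib3*, a stress-induced pseudokinase gene, from 2.23 to 3.79 CPM and from 1.28 to 1.94 CPM (−0.85 on the log2 scale, adjusted *p*=0.223).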
